A study of Mus musculus with 8 samples.

Results

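The genes of bile acid synthesis and hepatobiliary transport were examined as a module of 30 named genes among the 23467 genes of the expression table. Members were taken by gene symbol and not by their values. They fall into 7 genes of sterol ring synthesis, 7 of a peroxisomal group, 2 of conjugation, 4 of uptake from blood, 6 of export into the canaliculus, 2 of basolateral export and 2 regulators, the bile acid receptor FXR (*Nr1h4*) and its target SHP (*Nr0b2*). The peroxisomal group, marked side chain in the figures, holds genes of side chain shortening, *Phyh* of alpha-oxidation and the import receptor *Pex5*. All 30 symbols were present in the table, 22 had a mean of at least 1 RPKM (reads scaled to transcript length and library size) and were tested, and 8 had not. RNA sequencing covered 8 libraries of hepatoblasts that had been isolated from E14.5 mouse fetal livers of a mixed B6;129 strain and cultured on collagen. Undifferentiated hepatoblasts (iHBs) gave 1 control library and 1 library labelled L1L2_Alb, cells differentiated to hepatocytes (iHPs) with 12.5 ng per ml Oncostatin M for 5 days according to the labels gave 1 control and 2 labelled L1L2_Alb, and cells differentiated to biliary epithelial cells (iBECs) on Matrigel for 14 days gave 1 control and 2 labelled L1L2_Alb. Controls are labelled wild type. L1L2_Alb cells are labelled Lats1-/-;Lats2f/fl;Alb-cre, so that *Lats1* is lost in all cells of the embryo and *Lats2* only where the albumin promoter drives Cre. The sources do not state whether the libraries of a pair came from different embryos, so the spread within a pair may be technical. The p-values of genotype and stage effects below measure this spread together with how far the genotype difference varies between stages. The test of whether that difference varies between stages rests on the spread within pairs.

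Hepatocytes make bile acids from cholesterol. The classic route starts with 7-alpha-hydroxylation by CYP7A1 and the alternative route with CYP27A1, the ring is then modified in the endoplasmic reticulum and cytosol, and the side chain is shortened in peroxisomes before conjugation to taurine or glycine. NTCP (*Slc10a1*) and the organic anion transporters take bile acids back up from blood, and ATP-driven pumps send them, with phospholipid and cholesterol, into the canaliculus between hepatocytes.

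Depth and labels were checked first. Libraries held between 18436865 and 33229075 mapped reads, worked out from the steps of the lowest values. Of the deleted genes, *Lats1* was higher than in the control of the same stage in 4 of the 5 libraries with the L1L2_Alb label, and *Lats2* in 5 of 5. *Lats1* ranged from 5.38 to 11.2 RPKM in the 3 controls and from 7.12 to 22.7 RPKM in the 5 labelled L1L2_Alb, and *Lats2* from 6.90 to 10.1 RPKM and from 10.9 to 27.6 RPKM. These values are for whole genes, including the parts that a deletion leaves, and the genotype is given throughout as labelled. The YAP targets *Ctgf* and *Cyr61* were higher than in the control of the same stage in 5 of 5 libraries labelled L1L2_Alb. All iBEC libraries stood against their label in part. Control iBEC had *Alb* at 6162 RPKM (2485 RPKM in control iHB). Its biliary keratins *Krt7* and *Krt19* were at 62.3 and 83.7 RPKM against 400 and 273 RPKM, whereas *Spp1* was at 23271 against 1706 RPKM. The iBECs labelled L1L2_Alb had *Alb* at 5499 and 3357 RPKM against 524 RPKM in the iHB library of that label. In the same libraries *Krt7* was at 319 and 568 against 1470 RPKM, and *Krt19* at 254 and 355 against 400 RPKM. *Spp1* was at 6027 and 10760 against 428 RPKM.

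Promoter sequences from RefSeq, build GRCm38.p6, were used for 21 of the 30 members. For the members 1 chromosome was left out, which the shares over all starts below include. They are shown for *Scp2*, *Phyh* and *Slc27a2*, 3 of the 6 members that differed between genotypes (not for *Cyp39a1*, *Baat* and *Atp8b1*), and for the pair *Abcg5* and *Abcg8*, which was added after its values were seen. Capitals mark exact matches, on either strand, to a nuclear receptor motif (AGGTCA), an HNF1 motif (GTTAAT), a TEAD motif (GGAATG) or an HNF4 motif (CAAAGTCCA), searched in the 250 bases before each annotated start.
Scp2, chr4:108118548-108118797, minus strand: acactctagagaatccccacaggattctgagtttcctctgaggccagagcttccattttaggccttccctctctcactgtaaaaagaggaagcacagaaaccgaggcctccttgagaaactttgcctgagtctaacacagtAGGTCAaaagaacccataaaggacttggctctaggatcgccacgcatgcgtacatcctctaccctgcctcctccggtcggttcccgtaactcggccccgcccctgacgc
Phyh, chr2:4918746-4918995, plus strand: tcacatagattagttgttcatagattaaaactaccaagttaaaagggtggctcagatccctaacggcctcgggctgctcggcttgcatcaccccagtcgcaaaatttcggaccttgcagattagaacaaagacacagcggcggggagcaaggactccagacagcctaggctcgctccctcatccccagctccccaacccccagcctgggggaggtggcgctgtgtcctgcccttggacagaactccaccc
Slc27a2, chr2:126552792-126552821, plus strand, the 30 bases around its match: gcaccacgccttTGACCTtttcaacgtggg
Abcg5-Abcg8, chr17:84683012-84683120, plus strand, the 109 bases between their starts, which point away from each other: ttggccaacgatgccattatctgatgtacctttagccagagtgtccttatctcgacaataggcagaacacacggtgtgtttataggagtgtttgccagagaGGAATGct
AGGTCA occurred before 9 of the 27 annotated starts of members (33.3%), against 14% of the 32851 starts in the table. It lay before *Scp2* and *Slc27a2*, and also before *Abcb11*, *Abcc2*, *Akr1d1*, *Nr1h4*, *Slc10a1*, *Slco1a1* and *Slco1b2*. The HNF4 letters occurred before 1 member, *Cyp8b1*, and before 0.384% of all starts. GTTAAT occurred before *Nr1h4* and *Slco1b2* (7.41% of member starts, 6.43% of all), and GGAATG before *Hsd3b7*, *Abcg5* and *Abcg8* (11.1% and 12.6%), where the last pair shares 1 match. None of the 4 motifs lay in the window before *Phyh*. A match of letters is not a site of binding.

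To ask how the module differed with the labelled genotype, libraries labelled L1L2_Alb were compared with controls over the 3 stages in limma, with stage as a term, on log2(RPKM + 1), so that fold changes of low genes are understated. Of the 22 tested members, 6 fell with the L1L2_Alb label and 0 rose. They were *Slc27a2*, *Phyh* and *Scp2* of the peroxisomal group, *Cyp39a1* of synthesis, *Baat* of conjugation and *Atp8b1* of canalicular export. Across all 13421 genes tested, 9.57% were called in either direction and 3.37% were called lower. The median log2 fold change was -0.73 over the 22 members and 0.06 over all genes tested, and 20 members had a negative value. Of the 22, 10 members were lower than the control of their stage in all 5 libraries labelled L1L2_Alb, and 0 were higher in all 5. The share of all genes lower in all 5 was not worked out, so this count only describes the members. The calls were lost with fewer libraries. Without either the iHB or the iHP stage, or without control iHB, the library labelled L1L2_Alb iHB or control iHP, 0 members were called. The smallest adjusted p-values were then between 0.0561 and 0.0899 from limma. A stage left with 1 genotype adds nothing to the genotype fold, so these omissions are not separate checks. The sign of the 6 folds could not change, since each of the 6 was lower in all 5 libraries labelled L1L2_Alb. Without iHBs the log2 fold changes of the 6 were between -0.72 and -1.78, and without iHPs between -0.80 and -1.70. Without the iBEC stage 7 members were called.

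Markers of hepatocytes and of other cell types were also compared between the labelled genotypes. The 10 hepatocyte markers summed to between 18887 and 36268 RPKM in the controls and to between 13506 and 19683 RPKM under the L1L2_Alb label, and 5 of the 9 tested fell (*Alb*, *Ttr*, *Apoa2*, *Serpina1a* and *Trf*). The others were not called, with positive log2 fold changes for *Apoa1* (0.65) and *Afp* (0.07) and negative ones for *Tat* (-1.19) and *Cps1* (-2.96). The 4 neutrophil markers summed to between 2983 and 12344 RPKM in the controls and to between 42.6 and 3789 RPKM under the L1L2_Alb label, with 0 of 4 called. The 5 erythroid markers summed to between 2.86 and 108 RPKM and to between 1.79 and 22.3 RPKM, with 1 of 2 tested called lower (*Hbb-b1*). The 8 mesenchymal markers summed to 4650 RPKM in control iHB against 1630 RPKM, to 2878 RPKM in the iHP control against 737 and 1194, and to 2648 RPKM in the iBEC control against 3711 and 1664 RPKM, and 7 of the 8 were lower in 4 of 5 libraries, with 0 called. Macrophage (766 to 3627 RPKM) and endothelial (2.90 to 23.7 RPKM) sums overlapped between genotypes, with 0 called, and no marker of any list was at 0 in every library. Among the biliary markers *Krt7* and *Krt19* rose and *Spp1* fell, with sums over the list between 2503 and 23446 RPKM in the controls and between 2338 and 11737 RPKM in the others. Their part in the results was not tested. In these bulk libraries fewer hepatocyte-like cells and less RNA per cell cannot be told apart.

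**Figure D1:**
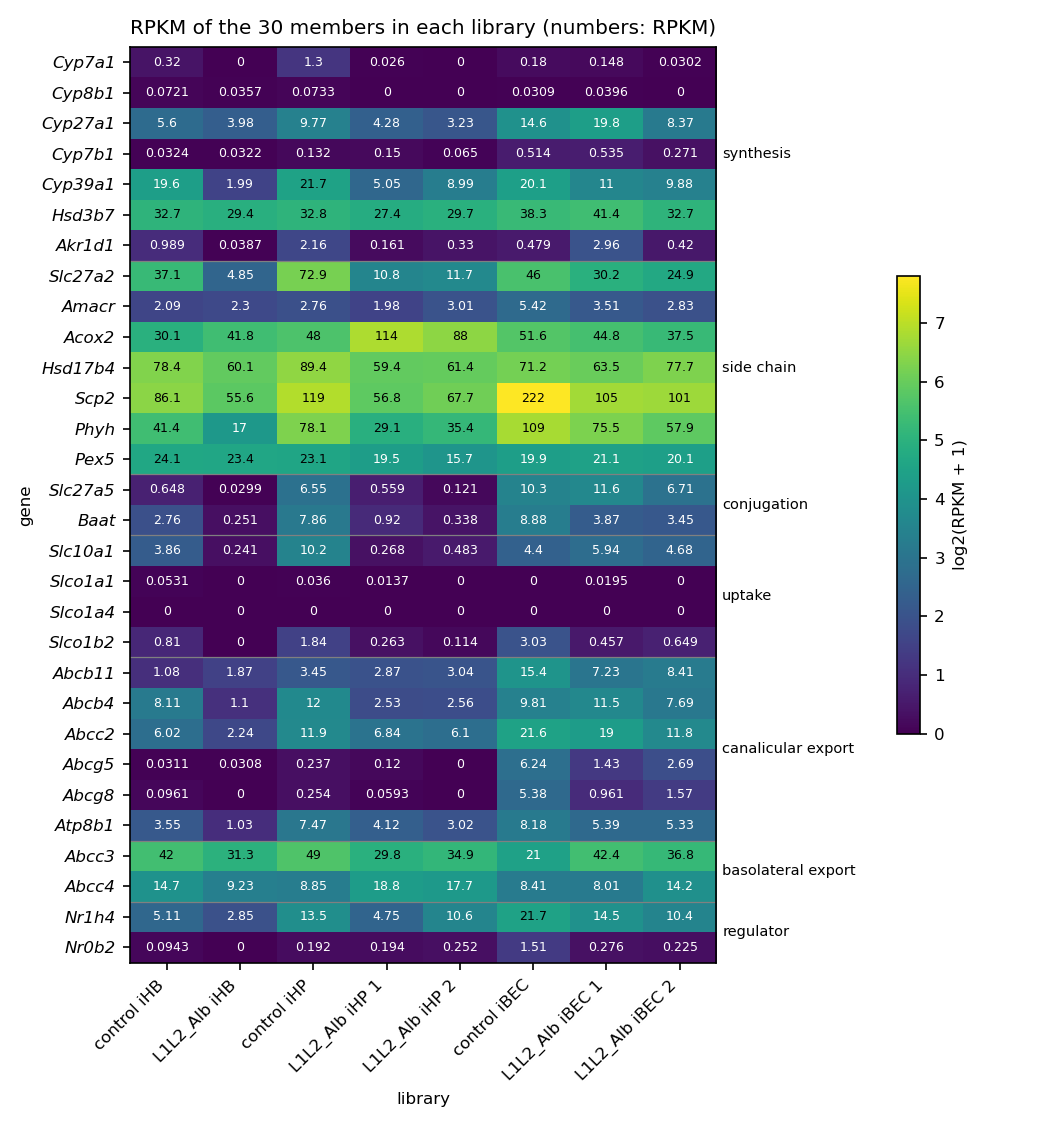
RPKM of the 30 members (rows, grouped by role) in the 8 libraries (columns), with colour for log2(RPKM + 1) and the RPKM printed in each cell. *Scp2* in control iBEC holds the highest value, 222 RPKM, and *Slco1a4* was at 0 in every library.

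Per length, the most abundant synthesis gene was *Hsd3b7* (mean 33.1 RPKM), followed by *Cyp39a1* (12.3 RPKM) and *Cyp27a1* (8.70 RPKM), and the other 4 had means under 1 RPKM. *Hsd3b7*, the 3-beta-hydroxysteroid dehydrogenase of the ring, was the most even member of this group and stayed between 27.4 and 41.4 RPKM, with a log2 fold change of -0.13 (SE 0.16, adjusted p = 0.663). The rate-limiting enzyme of the classic route was scarce. *Cyp7a1* had 38 reads in control iHB and 0 in the library labelled L1L2_Alb iHB, 152 reads in control iHP against 2 and 0, and 25 reads in control iBEC against 16 and 3. With a floor of 3 reads per library it was at least 12.8-fold lower in iHBs and at least 38.6-fold lower in the second library labelled L1L2_Alb iHP, and the 2 reads of the first gave a ratio of 50.1 (95% exact interval 13.6 to 417, counting error only). Its mean of 0.251 RPKM was under the filter, and with no filter its log2 fold change was -0.58 (adjusted p = 0.152), lower in 5 of 5.

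*Cyp8b1*, the sterol 12-alpha-hydroxylase that sets the share of cholic acid, had at most 4 reads in any library, too few to compare. *Cyp7b1*, the oxysterol 7-alpha-hydroxylase of the alternative route, also had few reads outside iBECs. It had 2 reads in each iHB library, 8 in control iHP against 6 and 3, and 37 in control iBEC against 30 and 14. Thus all 3 iBEC libraries were above the 5 others in RPKM (0.271 to 0.535 against 0.0322 to 0.150), and with no filter the iBEC against iHB difference was 0.48 (SE 0.09, adjusted p = 0.055). *Akr1d1*, the steroid 5-beta-reductase, was at 0.0387 to 2.96 RPKM and went both ways, with 76 reads in control iHB against 3, 163 in control iHP against 8 and 19, and 43 in control iBEC against 207 and 27.

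*Cyp39a1*, the 24-hydroxycholesterol 7-alpha-hydroxylase, was the only 1 of the 3 tested synthesis genes that was called lower. It was at 19.6 RPKM in control iHB against 1.99 RPKM in its L1L2_Alb-labelled counterpart, at 21.7 against 5.05 and 8.99 RPKM in iHPs, and at 20.1 against 11.0 and 9.88 RPKM in iBECs. The groups did not overlap, and the 3 controls lay within 19.6 to 21.7 RPKM. Its log2 fold change was -1.64 (SE 0.34, adjusted p = 0.0224). *Cyp27a1*, the mitochondrial sterol 27-hydroxylase, was at 5.60 RPKM in control iHB against 3.98, at 9.77 RPKM in control iHP against 4.28 and 3.23, and at 14.6 RPKM in the iBEC control against 19.8 and 8.37. The groups overlapped, the 2 iBEC libraries labelled L1L2_Alb lay on both sides of their control, and the log2 fold change was -0.60 (SE 0.32, adjusted p = 0.277).

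The peroxisomal group held the most abundant members. *Slc27a2*, a very long chain acyl-CoA synthetase that can activate bile acid precursors, gave the most negative fold change of the 22 tested members. It was at 37.1 RPKM in control iHB against 4.85 RPKM in its L1L2_Alb-labelled counterpart, at 72.9 against 10.8 and 11.7 RPKM in iHPs, and at 46.0 against 30.2 and 24.9 RPKM in iBECs. Every library labelled L1L2_Alb was below all 3 controls, with a log2 fold change of -1.95 (SE 0.36, adjusted p = 0.0155). The difference was -2.70 in iHBs, -2.64 and -2.55 in iHPs, and -0.59 and -0.86 in iBECs.

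*Phyh*, the phytanoyl-CoA hydroxylase of peroxisomal alpha-oxidation, was at 41.4 RPKM in control iHB against 17.0, at 78.1 RPKM in control iHP against 29.1 and 35.4, and at 109 RPKM in the iBEC control against 75.5 and 57.9. It was lower within each stage but higher in iBECs than in iHBs of the same genotype, so that the groups overlapped over the whole series. The log2 fold change was -1.05 for genotype (SE 0.19, adjusted p = 0.0146) and 1.69 for iBEC against iHB (SE 0.24, adjusted p = 0.00597). *Scp2*, the sterol carrier and peroxisomal thiolase that releases the shortened side chain, was at 86.1 RPKM in control iHB against 55.6, at 119 RPKM in control iHP against 56.8 and 67.7, and at 222 RPKM in the iBEC control against 105 and 101. Here the differences were -1.08 and -1.13 in iBECs and -1.06 and -0.81 in iHPs. Its log2 fold change was -0.91 for genotype (SE 0.17, adjusted p = 0.0148) and 1.09 for iBEC against iHB (SE 0.21, adjusted p = 0.0216).

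The other 4 genes of the peroxisomal group did not pass the test. *Hsd17b4*, the D-bifunctional protein, ranged from 59.4 to 89.4 RPKM and the import receptor *Pex5* from 15.7 to 24.1 RPKM, with log2 fold changes of -0.31 and -0.13. The racemase *Amacr* ranged from 1.98 to 5.42 RPKM (log2 fold change -0.25). *Acox2*, the branched-chain acyl-CoA oxidase, ranged from 30.1 to 114 RPKM and had a positive value of 0.39 (SE 0.26, adjusted p = 0.4). Its 2 highest libraries were those labelled L1L2_Alb iHP, at 114 and 88.0 RPKM against 48.0 RPKM in their control, so that members of 1 peroxisomal pathway lay on both sides of 0 in the same libraries.

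Both conjugation genes were much lower in the iHPs labelled L1L2_Alb. *Baat*, which joins bile acids to taurine and glycine, was at 2.76 RPKM in control iHB against 0.251, at 7.86 RPKM in control iHP against 0.920 and 0.338, and at 8.88 RPKM in the iBEC control against 3.87 and 3.45. It was lower in 5 of 5 libraries, with a log2 fold change of -1.72 (SE 0.29, adjusted p = 0.0116), and it rose by 1.75 from iHB to iBEC (SE 0.37, adjusted p = 0.031). The bile acyl-CoA synthetase *Slc27a5*, the step before it, was at 0.648 RPKM (43 reads) in control iHB against 0.0299 (2 reads), at 6.55 RPKM in control iHP against 0.559 and 0.121 (24 and 6 reads), and at 10.3 RPKM in the iBEC control against 11.6 and 6.71. Thus the iBECs of the genotypes overlapped while the iHPs did not. Its log2 fold change was -1.17 (SE 0.43, adjusted p = 0.13), with differences of -0.68 in iHBs, -2.28 and -2.75 in iHPs, and 0.16 and -0.55 in iBECs. Without control iHP it was -0.40, and it was called in 2 of 18 alternatives, those without control iBEC or the iBEC stage. These share the fold of -1.73 and are not separate checks, since iBECs without their control add nothing to it. *Slc27a5* had the largest stage effect of the 22, 3.18 for iBEC against iHB (SE 0.54, adjusted p = 0.0139) and 2.13 for iBEC against iHP (SE 0.48, adjusted p = 0.0489).

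Of the 4 uptake genes only *Slc10a1* (NTCP), the sodium-dependent bile acid carrier, was tested. It was at 3.86 RPKM in control iHB against 0.241, at 10.2 RPKM in control iHP against 0.268 and 0.483, and at 4.40 RPKM in the iBEC control against 5.94 and 4.68. The low values rest on few reads, by approximate numbers 12 in iHB against 192 in its control, and 9 and 18 in iHPs against 497. Hence the lowest 3 libraries were the iHB and the 2 iHPs labelled L1L2_Alb, whereas the iBECs labelled L1L2_Alb lay above their control. The log2 fold change over the stages was -1.56 (SE 0.53, adjusted p = 0.103). *Slc10a1* was called in 2 of 18 alternatives, without the iBEC stage or without control iBEC, which give the same fold. Over the 18 the adjusted p ranged from 0.00317 to 0.617. *Slco1b2* (OATP1B2), which carries unconjugated bile acids, had a mean of 0.896 RPKM, just under the filter. It had 76 reads in control iHB against 0, 170 in control iHP against 16 and 8, and 332 in control iBEC against 39 and 51. It was lower in 5 of 5 libraries labelled L1L2_Alb, at least 25.5-fold lower in iHBs, and with no filter its log2 fold change was -1.19 (SE 0.13, adjusted p = 0.0138). *Slco1a1* had at most 6 reads in a library, and *Slco1a4* was listed at 0 in all 8.

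**Figure D2:**
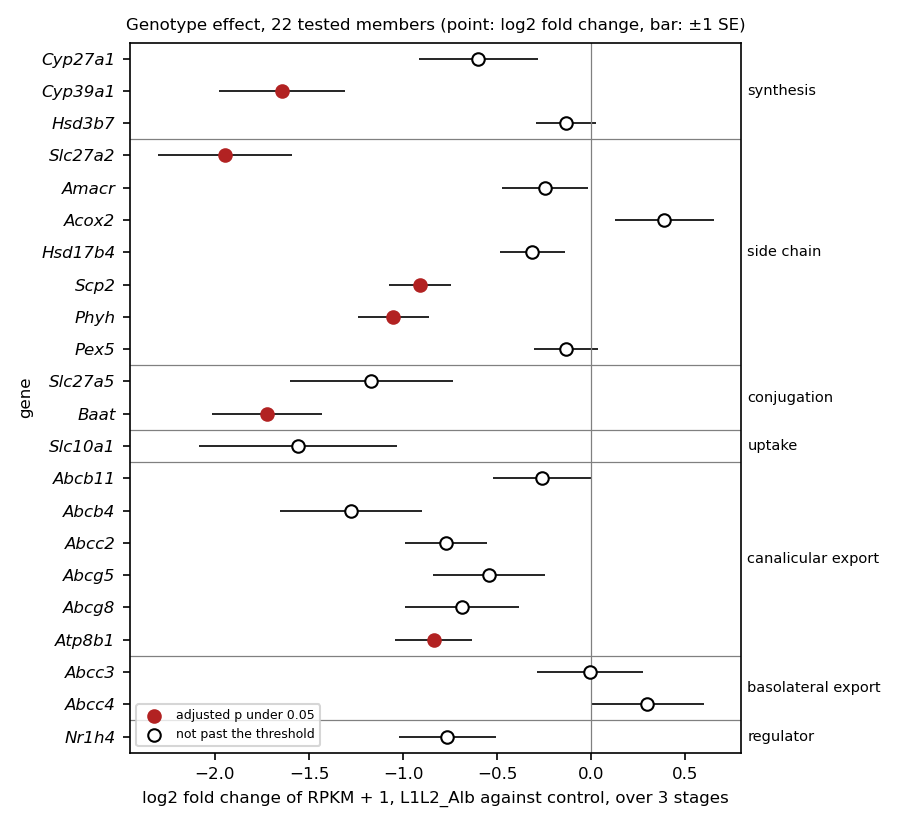
Log2 fold change of RPKM + 1, L1L2_Alb against control over 3 stages (horizontal axis), for the 22 tested members grouped by role, with bars of 1 SE. Filled points passed an adjusted p of 0.05, and all 6 of them, from *Atp8b1* at -0.84 to *Slc27a2* at -1.95, lie left of 0.

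Of the 6 canalicular exporters, *Atp8b1* fell with genotype, 5 rose from iHB to iBEC, and 0 were called in the test of a genotype effect that differs between stages (smallest adjusted p = 0.65 from limma). *Abcb4* (MDR2), the phosphatidylcholine floppase, was at 8.11 RPKM in control iHB against 1.10, at 12.0 RPKM in control iHP against 2.53 and 2.56, and at 9.81 RPKM in the iBEC control against 11.5 and 7.69. It thus had the same form as *Slc10a1*, low in iHBs and iHPs and near its control in iBECs, with a log2 fold change of -1.28 (SE 0.38, adjusted p = 0.0721) that was called in 4 of 19 alternatives. *Abcb11* (BSEP), the bile salt export pump, was at 1.08 RPKM in control iHB against 1.87, at 3.45 RPKM in control iHP against 2.87 and 3.04, and at 15.4 RPKM in the iBEC control against 7.23 and 8.41. Only in iBECs was it about 2-fold lower (-0.99 and -0.80), and the genotype effect was -0.26 (SE 0.26, adjusted p = 0.584). What separated its libraries was stage, with all 3 iBECs above the other 5: it rose by 2.19 from iHB (SE 0.32, adjusted p = 0.00764) and by 1.40 from iHP to iBEC (SE 0.29, adjusted p = 0.0385).

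*Abcg5* and *Abcg8*, which together form the sterol exporter, whose starts are shown above, were scarce outside iBECs. *Abcg5* had 2 reads in each iHB library, 15 in control iHP against 5 and 0, and 469 in control iBEC against 84 and 145. *Abcg8* had 10 reads in control iHB against 0, 26 in control iHP against 4 and 0, and 654 in control iBEC against 91 and 137. In RPKM the iBEC values were 6.24 against 1.43 and 2.69 for *Abcg5* and 5.38 against 0.961 and 1.57 for *Abcg8*. Both rose in iBECs, by 2.05 and 1.72 against iHB (adjusted p = 0.0181 and 0.0365) and by 1.85 and 1.53 against iHP (adjusted p = 0.0243 and 0.0455). Their genotype effects of -0.54 and -0.69 were not called (adjusted p = 0.296 and 0.194), and without control iBEC they were -0.13 and -0.22. Within iBECs the differences were -1.57 and -0.97 for *Abcg5* and -1.70 and -1.31 for *Abcg8*.

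*Abcc2* (MRP2), which exports conjugated bilirubin and other anions, was at 6.02 RPKM in control iHB against 2.24, at 11.9 RPKM in control iHP against 6.84 and 6.10, and at 21.6 RPKM in the iBEC control against 19.0 and 11.8. It was lower in 5 of 5 but not called (log2 fold change -0.77, SE 0.22, adjusted p = 0.0641), and it rose by 2.04 from iHB to iBEC (SE 0.27, adjusted p = 0.00511). *Atp8b1* (FIC1), the aminophospholipid flippase that protects the canalicular membrane, was at 3.55 RPKM in control iHB against 1.03, at 7.47 RPKM in control iHP against 4.12 and 3.02, and at 8.18 RPKM in the iBEC control against 5.39 and 5.33. It fell with genotype by 0.84 on the log2 scale (SE 0.21, adjusted p = 0.0411) and rose by 1.38 from iHB to iBEC (SE 0.26, adjusted p = 0.0203). Its genotype call was the least steady of the 6, held in 5 of 18 alternatives, with adjusted p-values from 0.0235 to 0.273.

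The 2 basolateral exporters, which return bile acids to blood, did not share the lower levels. *Abcc3* (MRP3) ranged from 21.0 to 49.0 RPKM and had a log2 fold change of -0.005 (SE 0.28, adjusted p = 0.994). It lay under its control in iHBs and iHPs and above it in iBECs, where the control, at 21.0 RPKM, was the lowest library and the 2 labelled L1L2_Alb were at 42.4 and 36.8 RPKM. *Abcc4* (MRP4) ranged from 8.01 to 18.8 RPKM and had a log2 fold change of 0.30 (SE 0.30, adjusted p = 0.592), with the 2 iHPs labelled L1L2_Alb at 18.8 and 17.7 RPKM against 8.85 RPKM.

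The receptor FXR, *Nr1h4*, was at 5.11 RPKM in control iHB against 2.85, at 13.5 RPKM in control iHP against 4.75 and 10.6, and at 21.7 RPKM in the iBEC control against 14.51 and 10.4. It was lower in 5 of 5 libraries labelled L1L2_Alb, but the 2 iHPs lay far apart (SD 0.72 on the log2 scale, n = 2 libraries), and the log2 fold change of -0.76 was not called (SE 0.26, adjusted p = 0.105). It rose by 1.84 from iHB to iBEC (SE 0.32, adjusted p = 0.0163). SHP, *Nr0b2*, the repressor that FXR induces, had 3 reads in control iHB against 0, 6 in control iHP against 4 and 6, and 56 in control iBEC against 8 and 6. Only the control iBEC library was above a few reads, at 1.51 RPKM against 0.276 RPKM or less in the other 7.

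**Figure D3:**
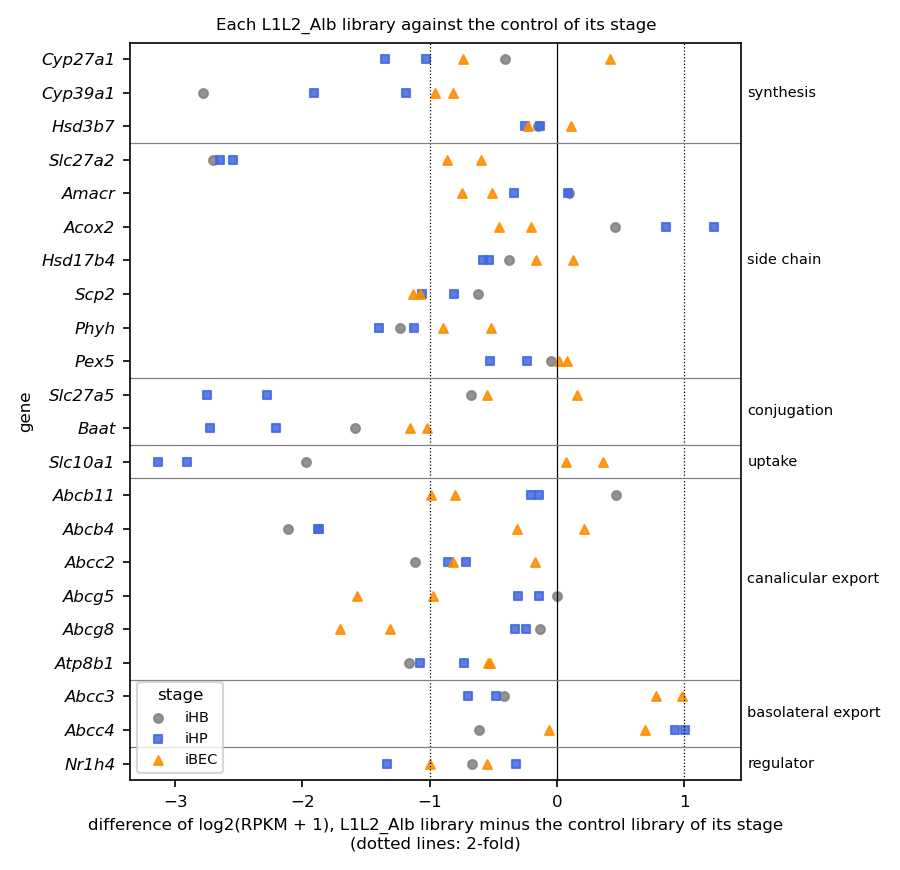
Difference of log2(RPKM + 1) between each library labelled L1L2_Alb and the control of its stage (horizontal axis, dotted lines at 2-fold), for the 22 tested members, with iHB as circles, iHP as squares and iBEC as triangles. *Slc10a1*, *Abcb4* and *Slc27a2* have squares left of -1 and triangles right of it, and *Abcg5*, *Abcg8* and *Abcb11* have triangles left of their squares.

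Set against the 1 control of its stage on the log2(RPKM + 1) scale, without a test, 8 of the 22 members were at least 2-fold lower in the iHB library labelled L1L2_Alb (8.99% of all genes tested), 8 in both iHPs (8.26%) and 3 in both iBECs (1.62%). The 3 of iBECs were *Scp2*, *Baat* and *Abcg8*, and on this scale *Baat* was past 2-fold in every stage. *Cyp39a1*, *Slc27a2*, *Phyh*, *Slc10a1* and *Abcb4* were 2-fold lower in iHBs and iHPs, *Abcc2* and *Atp8b1* in iHBs, and *Cyp27a1* and *Slc27a5* in iHPs. The added 1 RPKM keeps members of few reads out of this count: by reads, *Slc27a5* was 21.7-fold lower in iHBs (43 against 2 reads, 95% exact interval 5.65 to 185), and *Abcg8* had 10 reads against 0 in iHBs and was at least 6.60-fold lower in the second iHP. Member medians were -0.62 in iHBs, -0.72 and -0.67 in iHPs and -0.36 and -0.74 in iBECs, beside -0.09, 0.01 and -0.03, and 0.22 and 0.26 for all genes tested. With upper-quartile scaling the all-gene median in iBECs was 0.07 and the member median -0.70. Whether the genotype effect differs between stages was tested as an interaction, with 2 residual degrees of freedom: 0 of 22 members were called (0.0% of all genes), the smallest adjusted p being 0.359 for *Slc10a1* from limma. An unadjusted p under 0.05 was reached by 5 of the 22 members and by 733 of all 13421 genes tested.

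**Figure D4:**
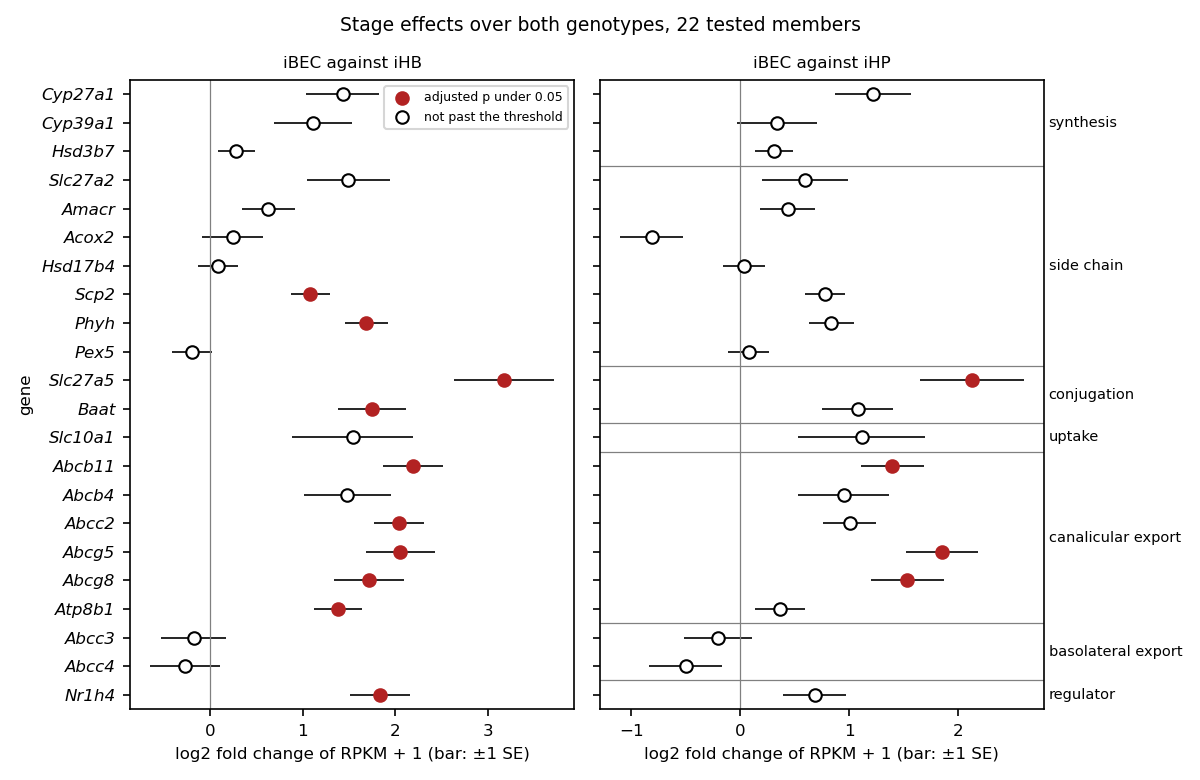
Log2 fold change of RPKM + 1 for iBEC against iHB (left) and iBEC against iHP (right) over both genotypes (horizontal axes), for the 22 tested members, with bars of 1 SE. Filled points passed an adjusted p of 0.05: 10 on the left and 4 on the right, all of them right of 0, with 5 of the 6 canalicular exporters among the 10.

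More members were called between iBEC and iHB than between genotypes. Over both genotypes, 10 of 22 members rose from iHB to iBEC and 0 fell, where 5.72% of all genes were called and 2.94% were called higher. They were *Scp2*, *Phyh*, *Slc27a5*, *Baat*, *Abcb11*, *Abcc2*, *Abcg5*, *Abcg8*, *Atp8b1* and *Nr1h4*, which is both conjugation genes, FXR and every canalicular exporter but *Abcb4* (1.48, SE 0.47, adjusted p = 0.113). With 1 iHB library the calls were lost but not the folds: without control iHB, 1 member was called and the log2 fold changes of the 10 were between 0.91 and 2.87, without the library labelled L1L2_Alb iHB, 1 was called and they were between 1.14 and 3.55, and without the second iBEC labelled L1L2_Alb 5 were. Hepatocyte markers moved with the same contrast: of 9 tested, 4 rose (*Alb*, *Apoa2*, *Tat* and *Trf*) and 1 fell (*Afp*), and under the L1L2_Alb label *Alb* was at 524 RPKM in iHB and at 5499 and 3357 RPKM in iBECs, and *Tat* at 0.0147 RPKM and at 68.7 and 19.4 RPKM. Their part in the rise of the members was not tested. From iHP to iBEC, 4 members rose (*Slc27a5*, *Abcb11*, *Abcg5* and *Abcg8*) and 0 fell, where 4.12% of all genes were called and 2.45% called higher. The 4 are near the threshold, and without the first iHP or the second iBEC labelled L1L2_Alb 0 were called. From iHB to iHP 0 of 22 members were called by limma (0.0% of all genes), with 6 at an unadjusted p under 0.05, beside 1158 of all 13421 genes tested. The comparisons share libraries, and the iBEC cultures alone were kept on Matrigel, and for another time, which cannot be told apart from the lineage. In the controls alone, without a test, 5 members were at least 2-fold higher in iHP than in iHB (1.93% of all genes) and 12 in iBEC (4.46%), with *Slc27a5*, *Baat*, *Abcb11* and *Nr1h4* in both.

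Of 38 other genes of the pathway, 31 were tested, and 6 fell and 3 rose with the L1L2_Alb label. Across all 13421 genes tested, 9.57% were called in either direction and 3.37% were called lower. The list was chosen with earlier results of these data known, so its counts only describe these genes. Among the regulators, 4 of 10 tested fell: *Hnf4a* (-1.33, adjusted p = 0.00373), *Nr5a2* (LRH-1, -1.51, adjusted p = 0.00904), *Nr1i2* (PXR, -1.28, adjusted p = 0.0176) and *Rxra*, the partner of FXR (-1.08, adjusted p = 0.0295). *Cyp3a11*, which hydroxylates bile acids, fell by 1.78, and *Slc51b*, a subunit of the basolateral exporter OST, fell by 1.18. The 3 that rose were the hydroxysteroid dehydrogenase *Akr1c14* (1.94), the apical exporter *Abcg2* (0.88) and *Ezr* (1.66), which encodes ezrin, the linker of membrane proteins to actin in biliary cells. Each of these 9 moved the same way in 5 of 5 libraries.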

How the data were processed

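Total RNA of 8 cultures was sequenced on TruSeq RNA v2 libraries. The submitters' processing notes name Bowtie 0.12.2 and the build mm8. The authors deposited 1 table of values taken here as RPKM for 23471 entries. The unit is inferred from the values, and counting fragments in place of reads would not change a fold. Duplicated symbols (4 entries) were left out. Since 1 read is worth a fixed step, library totals and the reads of 23 members were recovered to within 0.005 of a whole read; 6 members have approximate reads, and reads without molecular identifiers give counting error only. The 13421 genes averaging 1 RPKM or more were tested on log2(RPKM + 1) with limma 3.58.1 (R 4.3.3), stage plus genotype, moderated with a trend, 4 residual degrees of freedom and a two-sided test, and Benjamini-Hochberg adjustment over all of them at 0.05. Single stages were described without a test. The fit was tested on simulated data, where it recovered 96% of simulated log2 changes of 2 and 34% of those of 1, for the genotype effect over 13421 genes. All 30 members were accounted for: values per library are given for members called in the genotype or a stage effect and for 10 key genes, members with at most 10 reads are given in reads, and other pathway genes were named only if called. Members and lists were chosen with earlier results of these data known. Promoters came from RefSeq (GRCm38.p6), a build other than that of the table. The alternatives, among them a pseudocount of 0.1, 2 other scalings, no filter, a mean of at least 5 RPKM and leaving out each library or stage, are given in the closing section. The result of 1 marker gene is not reported here.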

Additional observations from a re-analysis of the deposited data

Results flagged for a closer look

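In 4 members both iHP libraries labelled L1L2_Alb lay on one side of their control and both iBEC libraries on the other. The difference between the stages was not tested for any of them alone, iHBs were left out of this comparison because 1 library was labelled L1L2_Alb, and the interaction over all stages called none. For *Slc10a1* the mean difference in iBECs minus that in iHPs was 3.24 on the log2(RPKM + 1) scale, with -3.14 and -2.91 in iHPs and 0.36 and 0.072 in iBECs. With upper-quartile scaling the iBEC values of *Slc10a1* were 0.23 and -0.14, and with quantile normalization 0.13 and -0.18, so the opposite direction in iBECs does not hold in the second library. For *Abcc3* it was 1.47, with -0.70 and -0.48 in iHPs and 0.98 and 0.78 in iBECs, and the directions held under both scalings. For *Acox2* it was -1.37, with 1.23 and 0.86 in iHPs and -0.20 and -0.45 in iBECs, and the directions also held. For *Pex5* it was 0.428, with -0.24 and -0.53 in iHPs and 0.077 and 0.015 in iBECs, and the iBEC values were negative under both scalings.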

How the results depend on the processing

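Of the 6 genotype calls among members, 0 were left without the iHB stage, without the iHP stage, or without control iHB, the library labelled L1L2_Alb iHB or control iHP (the omission of these and of control iBEC was added after seeing the data). Leaving out the only control of a stage gives the same genotype fold as leaving out the stage. The sign of the 6 folds could not change, since each of the 6 was lower in all libraries labelled L1L2_Alb. In size, *Scp2* was -1.02 and -0.90 without iHBs and iHPs, *Phyh* -0.98 and -0.93, and *Baat* -1.78 and -1.30. Leaving out single libraries gave between 0 and 8 calls. The 10 calls of iBEC against iHB became 5 with no filter and 5 with a mean of at least 5 RPKM, and ranged from 1 to 11 without single libraries. The 4 calls of iBEC against iHP became 8 at an adjusted p under 0.1, 2 with a pseudocount of 0.1, 7 with upper-quartile scaling, 0 with no filter, 0 with a mean of at least 5 RPKM, 0 with averaged pairs and 1 with the replicate block, and ranged from 0 to 9 without single libraries. Members 2-fold lower in both iBECs numbered 3, and 5 with upper-quartile scaling, 6 with quantile normalization, 1 with a mean of at least 5 RPKM and 7 at 1.5-fold. With a mean of at least 5 RPKM there were 5 in iHBs and 5 in iHPs in place of 8 and 8, and 2 and 6 in place of 5 and 12 higher in control iHP and control iBEC. For control iHP there were 9 with each of the other scalings and 11 at 1.5-fold. No test of the interaction was possible with averaged pairs, which leave 0 residual degrees of freedom.

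The genotype effect reversed sign for 4 members that were not called. *Pex5* was 0.0071 without the iHP stage or control iHP (range without single libraries -0.24 to 0.0071), *Abcb11* 0.10 without the iBEC stage or control iBEC (-0.53 to 0.10), and *Abcc4* -0.083 without the iHP stage or control iHP (-0.083 to 0.64). *Abcc3* was 0.15 without the iHB stage or either of its libraries, 0.33 without the iHP stage or its control, and 0.087 and 0.020 without the first or the second iHP labelled L1L2_Alb (-0.51 to 0.33). The cause was not tested. The sources do not state whether libraries of the same number are paired. The deviations of same-numbered iHPs and iBECs labelled L1L2_Alb correlated at -0.0216 across genes. Each deviation rests on the libraries of a single pair, so this correlation cannot decide whether they are paired. With the replicate block 5 genotype calls were made. Depth limits *Cyp8b1*, *Slco1a1* and *Slco1a4*, with at most 10 reads in every library.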
